A study of Mus musculus with 6 samples.

Results

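The genes described here are 35 genes given by symbol as a peroxisomal module, and all 35 were among the 16538 genes listed in the deposited iWAT RNA-Seq table. They were grouped by their known roles into 17 genes of fatty acid oxidation (acyl transport, the β-oxidation steps, auxiliary enzymes and α-oxidation), 3 genes of ether lipid synthesis, 11 peroxins, and 4 others, namely catalase, the membrane proteins *Pxmp2* and *Pxmp4*, and *Pmp22*. Of these, 34 encode peroxisomal proteins. *Pmp22* encodes peripheral myelin protein 22 of Schwann cells, whose name was once also used for a peroxisomal membrane protein now called *Pxmp2*, so *Pmp22* is counted among the 35 but kept out of the 3 role groups.

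RNA-Seq was performed on inguinal white adipose tissue (iWAT), the subcutaneous fat depot of the groin, from mice housed at 8°C for 10 days according to the sample labels. The study's text gives a longer time. The control group (genotype wt in the labels, fl/fl littermates in the study) and the NRG4 AKO group, in which Nrg4 was targeted in adipocytes through Adiponectin-Cre, had 3 samples each, and each sample was pooled RNA from 2 mice. Sex and age of these mice were not given in the sources used here. The question was how targeting of adipocyte Nrg4, a secreted ligand of the epidermal growth factor family, affects gene expression in beige fat during cold acclimation.

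Peroxisomes are small organelles that shorten very-long-chain, branched and dicarboxylic fatty acids by β-oxidation, remove a single carbon from phytanic acid by α-oxidation, and carry out the first steps of ether lipid (plasmalogen) synthesis. The first β-oxidation step passes electrons directly to oxygen and makes hydrogen peroxide, which catalase breaks down. Matrix enzymes are made in the cytosol and imported by peroxins, and peroxisomes become abundant in brown and beige fat when mice are kept in the cold.

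Each value is a normalized count, the authors' read count of a gene divided by a size factor of the sample. The 6 samples had 17570335 to 18373707 reads on the listed genes, with overlapping groups, and 1 read was worth 1.004, 1.08 and 1.02 normalized counts in control and 0.960, 0.976 and 0.964 in AKO iWAT. limma was fitted on log2(normalized count + 1) over 13855 genes, those averaging 10 or more, and all 35 genes passed this minimum. *Nrg4* itself (chr9:55220222-55326844, minus strand) had 3128, 3102 and 3092 normalized counts in control and 2577, 2627 and 2691 in AKO iWAT, a difference of -15.3% and a log2 difference of -0.24 ± 0.05 (SE), with every AKO sample below every control sample. The deleted exons were not given in the sources used here, so this count over the whole gene is only a partial check of the labels. Because iWAT was profiled in bulk, fewer cells of a type and less RNA per cell cannot be told apart. The samples are pools, so p-values measure the spread between these pools.

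Most of the 35 genes had lower values in AKO iWAT, by small amounts. The log2 difference (AKO minus control) was below 0 for 28 of 35 genes, against 48.1% of all genes tested, and its median over the 35 was -0.14 against 0.01 over all genes tested. In 17 of the 35 every AKO sample lay below every control sample, where 8.31% of all genes tested did so, and in 1 (*Pmp22*) every AKO sample lay above, where 6.14% of all genes did so. After adjustment over all genes, limma called none of the 35 lower (0.00722% of all genes) and none higher (0.00722%). At an unadjusted p under 0.05, limma had 11 lower (4.69% of all genes) and 1 higher (4.41%). edgeR called 0 of the 35 (0.0216% of all genes), and DESeq2, the tool of the study, called 5 lower (0.757% of all genes with an adjusted p) and 0 higher (0.241%). The 5 genes were *Ehhadh*, *Ech1*, *Hacl1*, *Phyh* and *Abcd3*, all of oxidation.

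**Figure D1:**
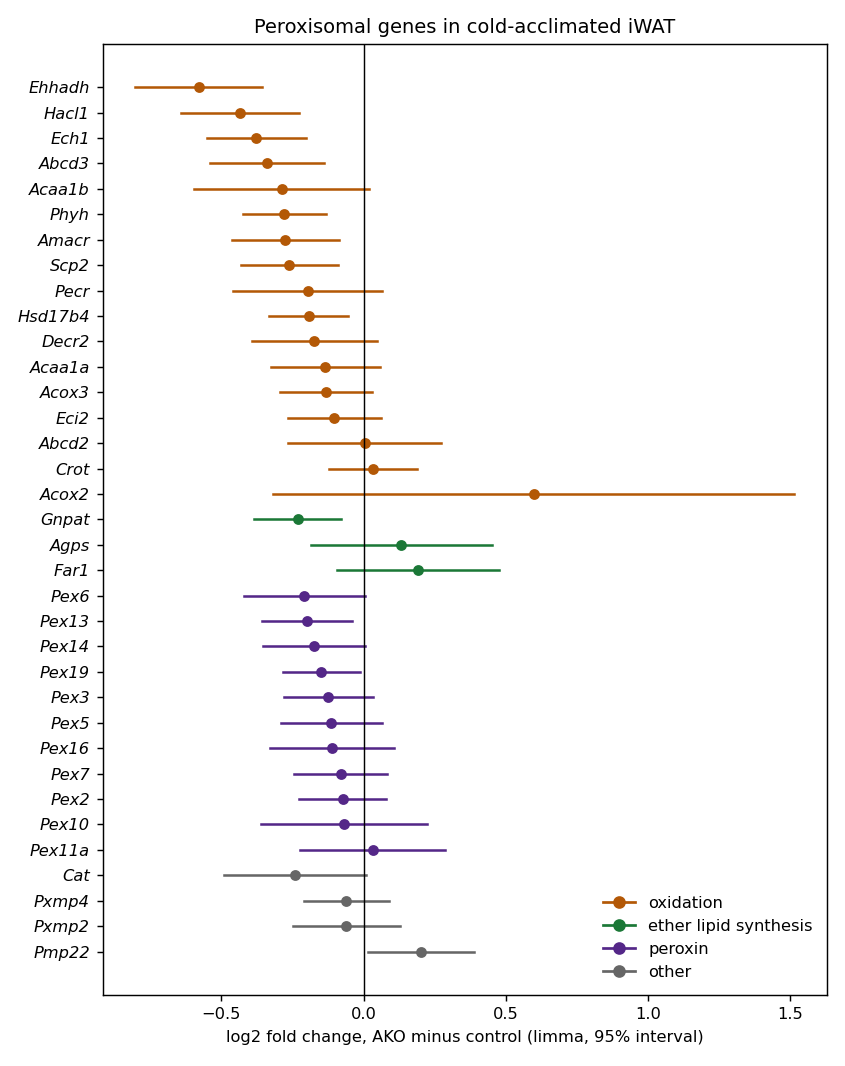
Log2 fold change (AKO minus control) of the 35 genes from limma with its 95% interval, colored by role group, with genes ordered by value within a group. *Ehhadh* sits farthest to the left at -0.58, 14 of the 17 oxidation genes lie left of 0, and the wide interval of *Acox2* is that of a gene with few reads.

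The role groups differed in size of the difference, which is described here without a test. The median log2 difference was -0.20 over the 17 oxidation genes (range -0.58 to 0.60, 14 below 0), -0.11 over the 11 peroxins (range -0.21 to 0.03, 10 below 0) and 0.13 over the 3 ether lipid genes (range -0.23 to 0.19, 1 below 0). In single samples, the median deviation of the oxidation genes from their control mean was -0.03, 0.08 and -0.07 (log2) in control and -0.18, -0.26 and -0.23 in AKO iWAT, so the groups did not overlap. For the peroxins it was -0.02, 0.14 and -0.04 in control and -0.13, -0.08 and -0.12 in AKO samples, again without overlap but with a gap from -0.04 to -0.08 only. For the ether lipid genes it was 0.06, -0.15 and -0.04 against -0.02, 0.39 and -0.01, so the groups overlapped and AKO sample 2 stood apart. The ether lipid median was -0.02 without AKO sample 2.

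**Figure D2:**
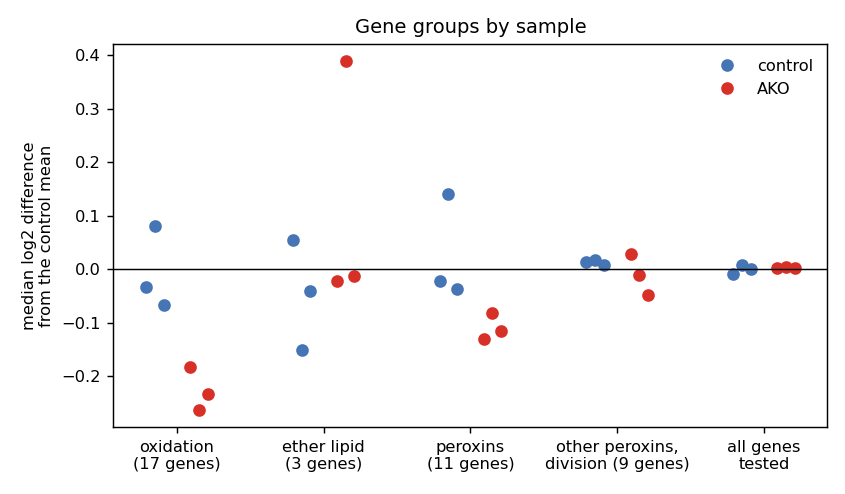
Median log2 difference from the control mean, for each of the 6 samples, over the genes of each role group, over 9 further peroxins and division genes, and over all genes tested. The 3 AKO samples lie below the 3 control samples for oxidation (-0.18 to -0.26) and peroxins (-0.08 to -0.13), AKO sample 2 stands apart at 0.39 for ether lipid synthesis, and all samples lie close to 0 over all genes.

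Fatty acyl groups enter peroxisomes through ABC transporters, and the 2 transporters measured here gave different values. *Abcd3*, which carries branched-chain and dicarboxylic acyl-CoAs (chr3:121758774-121815302, minus strand), had 3472, 3471 and 3036 normalized counts in control and 2663, 2841 and 2386 in AKO iWAT. The groups were separate, with a log2 difference of -0.34 ± 0.09 (SE), a limma adjusted p of 0.35 and a DESeq2 adjusted p of 0.045, the alternatives of limma, edgeR and DESeq2 giving adjusted p from 0.045 to 0.772. *Abcd2*, the transporter of very-long-chain acyl-CoAs typical of fat cells, had 11476, 8947 and 10855 normalized counts in control and 11727, 9412 and 10167 in AKO iWAT. Its groups overlapped throughout and its means were 10426 ± 1318 in control and 10435 ± 1181 in AKO samples (SD, n = 3), with a 95% interval of the log2 difference from -0.27 to 0.27. *Abcd2* was also the more abundant transporter, at 1753 normalized counts per kb of exon in control samples against 505 for *Abcd3*. *Crot*, the carnitine octanoyltransferase that prepares shortened acyl chains for export, had 928, 921 and 841 normalized counts in control and 942, 901 and 903 in AKO iWAT with overlapping groups and a 95% interval from -0.12 to 0.19.

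In straight-chain β-oxidation, the hydratase and dehydrogenase steps are carried out by the bifunctional enzyme of *Ehhadh*, which is known as a target of PPARα. *Ehhadh* (chr16:21761287-21787807, minus strand) had 3939.8, 5021 and 4069 normalized counts in control and 2823, 2824 and 3024 in AKO iWAT. The AKO values all sat under the control range and lay close together, while control sample 2 was above the other two. The means were 4343 ± 590.4 in control and 2891 ± 116 in AKO samples (SD, n = 3), a difference of -33.4% and a log2 difference of -0.58 ± 0.10 (SE), the lowest value among the 35 genes, with -0.65 to -0.47 when single samples were left out. limma gave an unadjusted p of 0.000338 and an adjusted p of 0.205, edgeR an adjusted p of 0.216 and DESeq2 an adjusted p of 7.84e-06, and over all alternatives of limma, edgeR and DESeq2 the adjusted p ran from 7.84e-06 to 0.513.

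The sequences upstream of *Ehhadh* and of the 2 other DESeq2-called genes whose upstream window overlapped no annotated exon are shown because these genes had lower values together. They are the 250 bases before the RefSeq transcript start in GRCm38.p6, written 5′ to 3′ on the gene's strand, with GC boxes (GGGCGG, either strand, the core bound by SP1-type factors) in capitals.
Ehhadh, chr16:21787835-21788084, minus strand: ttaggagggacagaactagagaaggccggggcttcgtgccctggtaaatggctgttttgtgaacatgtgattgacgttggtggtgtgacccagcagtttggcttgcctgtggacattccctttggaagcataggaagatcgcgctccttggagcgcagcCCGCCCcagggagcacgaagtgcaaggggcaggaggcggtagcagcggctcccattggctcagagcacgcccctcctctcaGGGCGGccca
Phyh, chr2:4918746-4918995, plus strand: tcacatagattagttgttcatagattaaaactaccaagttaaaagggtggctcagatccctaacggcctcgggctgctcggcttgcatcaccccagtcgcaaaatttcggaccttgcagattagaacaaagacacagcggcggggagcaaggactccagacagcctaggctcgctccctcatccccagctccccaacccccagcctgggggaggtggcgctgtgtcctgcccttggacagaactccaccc
Abcd3, chr3:121815303-121815552, minus strand: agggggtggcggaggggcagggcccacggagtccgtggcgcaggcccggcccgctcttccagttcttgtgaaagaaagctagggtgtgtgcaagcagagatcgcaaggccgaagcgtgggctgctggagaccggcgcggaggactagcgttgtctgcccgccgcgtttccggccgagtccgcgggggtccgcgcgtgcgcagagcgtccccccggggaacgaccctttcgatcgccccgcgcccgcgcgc
The window of *Ehhadh* held 2 GC boxes and was 60.4% G or C, whereas those of *Phyh* (56.4%) and *Abcd3* (72.0%) held none. Of the called genes whose windows are not shown, *Ech1* had 2 GC boxes (51.2% G or C) and *Hacl1* had 1 (57.6%). RefSeq windows of 300 bases around the start (250 before, 50 after) were found for 29 of the 35 genes, and in these, searched on both strands, GGGCGG occurred in 24 (82.8%), against 67.2% of 10491 genes tested with such a window and 38.2% of all 27025 genes with one. The nuclear receptor core AGGTCA occurred in 3 of 29 (*Scp2*, *Phyh* and *Cat*, 10.3%), against 15.0% of genes tested and 18.1% of all genes. A direct repeat of AGGTCA with 1 base (N) between the copies, the idealized element for PPAR with RXR, occurred in 0 of 29 against 0.0477% of genes tested and 0.0481% of all genes. The looser repeat of AGGNCA with 1 base between occurred in 0 of 29 against 0.286% and 0.451%. AGGTCA is part of the repeats and overlaps them, and a match or its absence in these windows is a description of the letters only.

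Among the other core β-oxidation genes, *Hsd17b4* and *Scp2* had lower values in AKO iWAT by less than *Ehhadh*. *Hsd17b4*, which encodes the D-bifunctional protein acting on branched and very-long chains, had 6710.5, 7161 and 6840.3 normalized counts in control and 6015, 6241 and 5854 in AKO iWAT, without overlap of the groups, and a log2 difference of -0.19 ± 0.06 (SE) with a limma adjusted p of 0.45. *Scp2*, whose longer product is the thiolase for branched chains, had 5241, 5581 and 5044 normalized counts in control and 4682, 4071 and 4494 in AKO iWAT, also without overlap, and -0.26 ± 0.07 (SE) with a limma adjusted p of 0.398. Of the 50-base windows of *Scp2* transcripts, 29.7% also occur in the pseudogene *Scp2-ps2*, so its count is less certain. Neither gene was called by limma or DESeq2.

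The thiolase genes *Acaa1a* and *Acaa1b*, which cleave the chain in the last step, are near-identical copies, with 30.5% of *Acaa1b* windows of 50 bases found in *Acaa1a*, so the division of reads between them is uncertain. *Acaa1a* had 1143, 1067 and 1141 normalized counts in control and 1089.9, 909.9 and 1059 in AKO iWAT, and the groups overlapped. *Acaa1b* had 663, 811 and 589.6 normalized counts in control and 638, 512 and 533 in AKO iWAT, again with overlap, and a log2 difference of -0.29 ± 0.13 (SE). Both had an unadjusted limma p above 0.05. *Acox3*, an oxidase of branched chains that makes hydrogen peroxide, had 1125, 1229 and 1077 normalized counts in control and 1006, 1058 and 1058 in AKO iWAT, with every AKO sample below every control sample by a small margin (-0.13 ± 0.07 SE). *Acox2*, the oxidase of bile acid intermediates, was barely expressed in this tissue, at 13.0, 34.4 and 15.2 normalized counts in control and 22.1, 37.1 and 30.9 in AKO iWAT, and its interval from -0.32 to 1.51 leaves its direction undetermined.

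Auxiliary enzymes prepare unsaturated or branched chains for β-oxidation. *Ech1*, a dienoyl-CoA isomerase found in peroxisomes and mitochondria (chr7:28825217-28832247, plus strand), had 6987, 7757 and 6978 normalized counts in control and 5433, 5294 and 6004 in AKO iWAT. No AKO sample reached the control range, and the log2 difference was -0.38 ± 0.08 (SE), with a limma adjusted p of 0.254, a DESeq2 adjusted p of 0.00169 and adjusted p from 0.00169 to 0.587 over the alternatives of limma, edgeR and DESeq2. *Amacr*, the racemase that sets the configuration of branched chains, had 317, 357 and 339.5 normalized counts in control and 280.4, 274 and 282 in AKO iWAT, without overlap, and -0.28 ± 0.08 (SE), with an unadjusted limma p of 0.01 and an adjusted p of 0.432. The SD of the AKO samples of *Amacr*, and that of 1 or both groups in *Hacl1*, *Acox3*, *Decr2*, *Crot*, *Pex2*, *Pex3*, *Pex6* and *Pex7*, was below the Poisson counting error at the mean and so understates the error.

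The remaining auxiliary genes had values below 0 on the log2 scale but overlapping groups. *Eci2*, an enoyl-CoA isomerase, had 1891, 2186 and 1937 normalized counts in control and 1812, 1891 and 1883 in AKO iWAT, with AKO sample 2 at the level of control sample 1. For the reductases *Decr2* and *Pecr*, the log2 differences were -0.17 ± 0.09 and -0.20 ± 0.11 (SE). With single samples left out they ran from -0.26 to -0.11 for *Decr2* and from -0.28 to -0.11 for *Pecr*. *Decr2* ranged from 419.8 to 517 normalized counts in control and from 399 to 438 in AKO samples. *Pecr* ranged from 315 to 401 and from 294 to 341.

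Both genes of α-oxidation were among those DESeq2 called lower. *Phyh*, the phytanoyl-CoA hydroxylase that starts the pathway (chr2:4919019-4938730, plus strand), had 4514, 4726 and 4611 normalized counts in control and 3630.0, 3744 and 4054 in AKO iWAT. The groups were separate, with a log2 difference of -0.28 ± 0.06 (SE), a limma adjusted p of 0.304, a DESeq2 adjusted p of 0.0347 and adjusted p from 0.0347 to 0.621 over the alternatives of limma, edgeR and DESeq2. *Hacl1*, the lyase that removes the single carbon (chr14:31598730-31641286, minus strand), had 1324, 1387 and 1363 normalized counts in control and 1116, 885 and 1026 in AKO iWAT. Its log2 difference was -0.43 ± 0.09 (SE), the lowest of the 35 after *Ehhadh*, with a limma adjusted p of 0.266, a DESeq2 adjusted p of 0.0102 and a range of 0.0102 to 0.608 over the alternatives of limma, edgeR and DESeq2. Of the exon bases of *Hacl1*, 33.3% are shared with *Btd* on the opposite strand or *Gm49387* on the same strand, and whether reads were counted by strand was not given in the sources used here. *Btd* itself had means of 1356 ± 80.8 in control and 1201 ± 118 in AKO samples (SD, n = 3) and an unadjusted limma p of 0.0788.

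**Figure D3:**
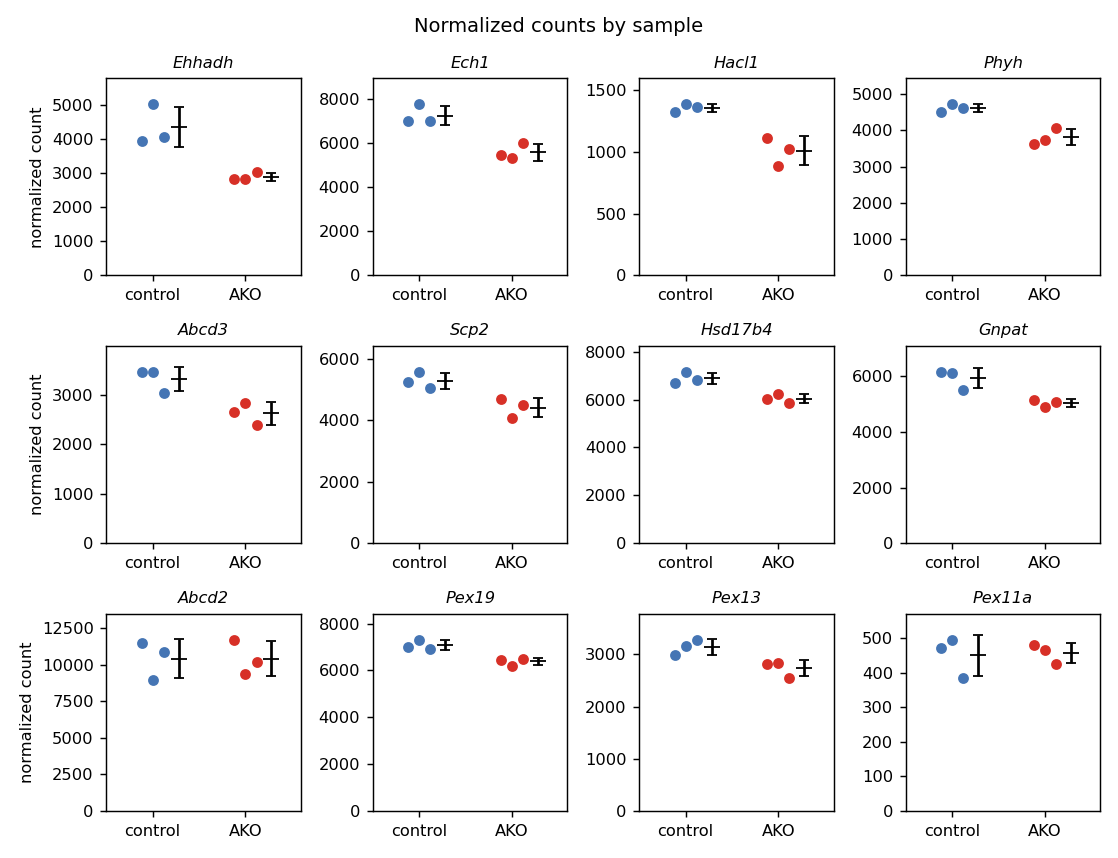
Normalized counts of 12 of the genes in each sample (points), with the mean and SD of 3 samples beside them, on axes that start at 0. For *Ehhadh*, *Ech1*, *Hacl1*, *Phyh*, *Abcd3*, *Scp2*, *Hsd17b4*, *Gnpat*, *Pex19* and *Pex13* every AKO point is below every control point, and for *Abcd2* and *Pex11a* the points overlap.

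*Cat*, which encodes catalase, was the most abundant of the 35 per length, at 10261 normalized counts per kb of exon in control and 8733 in AKO samples. It had 27947, 26735 and 25755 normalized counts in control and 25077, 19365 and 24018 in AKO iWAT. All AKO samples were below the control samples, AKO sample 2 by far the most. The log2 difference was -0.24 ± 0.11 (SE) with an unadjusted limma p of 0.0567 and an adjusted p of 0.56. With single samples left out it ran from -0.31 to -0.13. Next in the order of control levels per kb came *Ech1* (3170.1), *Pmp22* (2650.3), *Phyh* (2439), *Hsd17b4* (2028), *Pex19* (1856) and *Abcd2* (1753). *Cat* and *Ech1* did not overlap over the control samples, *Pmp22* and *Phyh*, like *Pex19* and *Abcd2*, did, and the other neighbors in this order did not. The lowest were *Pex7* (46.0), whose control samples overlapped those of *Far1* (47.1), and *Acox2* (5.64).

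**Figure D4:**
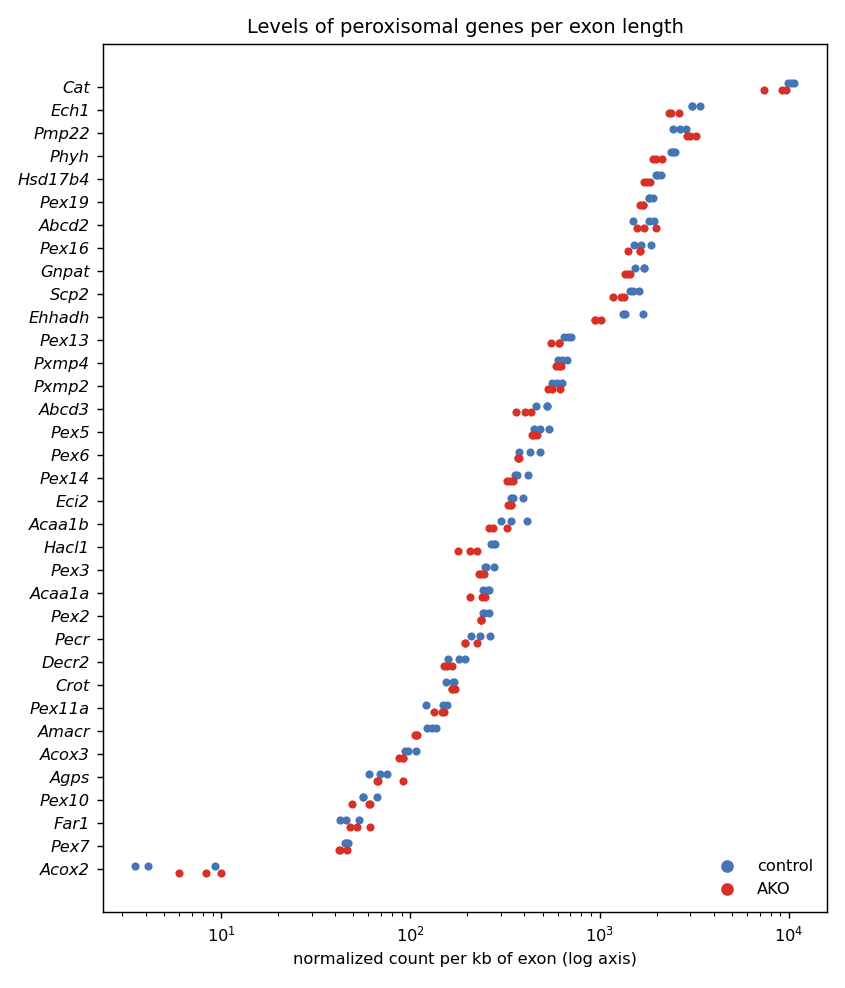
Normalized count per kb of annotated exon for the 35 genes on a log axis, 1 point per sample, ordered by control mean. Levels run from 10261 for *Cat* to 5.64 for *Acox2* in control samples, a range much wider than any difference between the groups.

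The 3 ether lipid genes had log2 differences on both sides of 0, and limma and DESeq2 called none of them. *Gnpat*, the acyltransferase that starts the pathway on dihydroxyacetone phosphate, had 6162, 6131 and 5522 normalized counts in control and 5161, 4899 and 5089 in AKO iWAT. The groups were separate, and the log2 difference was -0.23 ± 0.07 (SE) with an unadjusted limma p of 0.00812, a limma adjusted p of 0.407 and no call by DESeq2. *Agps*, the enzyme that exchanges the acyl group for an alkyl chain, had 647, 572 and 706 normalized counts in control and 630.0, 863 and 634 in AKO iWAT, and *Far1*, the reductase that supplies the fatty alcohol, had 431, 339.8 and 367 normalized counts in control and 419, 494 and 387 in AKO iWAT. In both, AKO sample 2 was the highest of the 6 samples and the groups overlapped, with 95% intervals of the log2 difference from -0.18 to 0.45 for *Agps* and from -0.09 to 0.48 for *Far1*. Without AKO sample 2 the log2 difference of *Agps* was -0.02. With a skeletal muscle marker score as covariate in limma, that of *Far1* was 0.32 (unadjusted p 0.035). Of the exon bases of *Gnpat*, 7.81% are shared with *Gm16163* or *2810004N23Rik*.

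Ratios between genes of the same sample do not depend on the scaling, and 9 pairs were compared by a 2-sided exact permutation test, the pairs having been chosen after their values were seen. With 3 samples against 3, p cannot go below 0.1. The ratio of *Ehhadh* to *Hsd17b4*, the genes of the alternative bifunctional enzymes, was 0.587, 0.701 and 0.595 in control and 0.469, 0.453 and 0.517 in AKO samples, a log2 difference of -0.39 (exact p = 0.1, 0.15 adjusted over the 9 pairs), without overlap. *Ech1* to *Eci2* was 3.70, 3.55 and 3.60 against 2.998, 2.80 and 3.19 (log2 difference -0.27, exact p = 0.1), and *Gnpat* to *Far1* was 14.3, 18.0 and 15.0 against 12.3, 9.92 and 13.2 (-0.42, exact p = 0.1), both without overlap. The ratio of *Abcd3* to *Abcd2* differed by -0.34 with overlapping groups (exact p = 0.2), *Scp2* to *Acaa1a* by -0.13 (exact p = 0.2) and *Gnpat* to *Agps* by -0.37 (exact p = 0.3). *Ehhadh* was also lower relative to the adipocyte genes *Plin1* (-0.49) and *Adipoq* (-0.48), each at exact p = 0.1 without overlap.

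The 11 peroxins had small differences, and DESeq2 and limma called none of them. Among those that import matrix proteins, *Pex13*, a component of the docking complex, had 2990.5, 3166 and 3283 normalized counts in control and 2819, 2845 and 2558 in AKO iWAT, without overlap, and a log2 difference of -0.20 ± 0.07 (SE) with an unadjusted limma p of 0.0193 and an adjusted p of 0.492. *Pex14*, its partner in docking, had 2289, 2635 and 2233 normalized counts in control and 2033, 2101 and 2195 in AKO iWAT and -0.17 ± 0.08 (SE), and 28.3% of its exon bases are shared with *Gm17029*. *Pex6*, an ATPase that recycles the import receptor, had 1635, 1843 and 1430.3 normalized counts in control and 1417, 1397 and 1410.5 in AKO iWAT, with the 3 AKO samples within a narrow range under the lowest control sample. *Pex2*, a ubiquitin ligase subunit, had 588, 549.5 and 555 normalized counts in control and 538, 533 and 536 in AKO iWAT, separate but by a small margin, and *Pex10*, another subunit of that ligase, ranged from 185 to 218 in control and from 161 to 201 in AKO samples. The receptors overlapped between groups, with log2 differences of -0.11 ± 0.08 (SE) for *Pex5*, which binds the common carboxy-terminal signal, and -0.08 ± 0.07 (SE) for *Pex7*, which binds the amino-terminal signal. *Pex5* ranged from 1772 to 2122 in control and from 1728 to 1829 in AKO samples, and *Pex7* from 548 to 568 and from 506 to 558.

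Membrane biogenesis was represented by *Pex3*, *Pex16* and *Pex19*. *Pex19*, the chaperone and import receptor of membrane proteins, had the highest mean of the peroxins per kb of exon, with control samples that overlapped those of *Pex16*. *Pex19* had 6987, 7315 and 6936 normalized counts in control and 6464, 6194 and 6496 in AKO iWAT. The groups were separate, and the log2 difference was -0.15 ± 0.06 (SE) with an unadjusted limma p of 0.0345 and an adjusted p of 0.522. *Pex3*, its docking site on the membrane, had 1170.1, 1314 and 1194 normalized counts in control and 1121, 1158 and 1093 in AKO iWAT, separate by a small margin, while *Pex16*, which recruits the PEX3 protein to the membrane, overlapped at 2699 to 3319.7 against 2498 to 2891 (-0.11 ± 0.09, SE). *Pex11a*, which promotes elongation and proliferation of peroxisomes, had 471, 496 and 384 normalized counts in control and 481, 467 and 426 in AKO iWAT with overlap, and its 95% interval ran from -0.22 to 0.28. The membrane proteins *Pxmp2* and *Pxmp4* overlapped as well, at 668 to 756 against 638 to 737 and 1864 to 2088 against 1838 to 1954, each with a log2 difference of -0.06.

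*Pmp22* was the single gene of the 35 whose AKO samples all lay above the control samples. It had 5728, 6759 and 6229 normalized counts in control and 7637, 6769.7 and 7086 in AKO iWAT, with AKO sample 2 only just above control sample 2, and a log2 difference of 0.20 ± 0.08 (SE), an unadjusted limma p of 0.0386 and an adjusted p of 0.527. With the muscle score as covariate in limma the log2 difference was 0.13 (unadjusted p 0.17). The 7 Schwann cell and myelin markers had a median log2 difference of 0.01, with 3 below 0 and 4 above. Of these 7, 0 had an unadjusted limma p under 0.05 (4.69% of all genes lower, 4.41% higher). In 1 of them every AKO sample lay above every control sample (6.14% of all genes).

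Other genes of peroxisomes were taken from lists of 56 genes, of which 51 were listed and 49 tested. Their median log2 difference was -0.07, with 37 below 0 (48.1% of all genes). At an unadjusted limma p under 0.05, 10 were lower (4.69% of all genes) and 0 higher (4.41%), and in 15 every AKO sample was below the control samples (8.31%). limma called 0 of them lower (0.00722%) and DESeq2 5 (0.757%). By list, against the same 4.69% of all genes, 8 of the 21 further genes of oxidation and acyl-CoA handling were lower at an unadjusted p under 0.05 (median -0.14), as were 0 of 9 further peroxins and division genes (median 0.00), 0 of 6 ether lipid genes (median -0.02) and 2 of 13 redox and other matrix enzymes (median -0.15). These role groups were not tested against each other.

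*Slc27a2*, which activates very-long-chain fatty acids, had the largest difference among these genes, with 350.2, 491 and 270.4 normalized counts in control and 103, 147 and 130.2 in AKO iWAT. Of its exon bases, 11.2% are shared with *Gm26697* on the opposite strand. Its groups were separate, the log2 difference was -1.51 ± 0.22 (SE), and the adjusted p was 0.13 by limma and 1.50e-08 by DESeq2, with 1.50e-08 to 0.448 over the alternatives of limma, edgeR and DESeq2. *Ephx2*, a soluble epoxide hydrolase, had 14008, 14047 and 12143 normalized counts in control and 10392, 8288 and 10336 in AKO iWAT, a log2 difference of -0.47 ± 0.11 (SE). *Dhrs4*, a carbonyl reductase, had means of 1397 ± 94.1 in control and 1067 ± 36.1 in AKO samples (SD, n = 3). *Slc25a17*, the carrier of coenzyme A and adenine nucleotides, and *Acad11*, an acyl-CoA dehydrogenase, had log2 differences of -0.32 ± 0.06 and -0.25 ± 0.06 (SE). DESeq2 gave these 4 adjusted p of 0.00156, 0.00727, 0.04 and 0.0474, and limma 0.304, 0.227, 0.254 and 0.315. The adjusted p over the alternatives of limma, edgeR and DESeq2 reached 0.621, 0.534, 0.587 and 0.633.

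*Mlycd* (-0.36), *Tysnd1* (-0.33), *Crat* (-0.31) and *Hsdl2* (-0.18) were below every control sample in every AKO sample, as was *Tmem135* (-0.17), and neither limma nor DESeq2 called any of these 5.

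**Figure D5:**
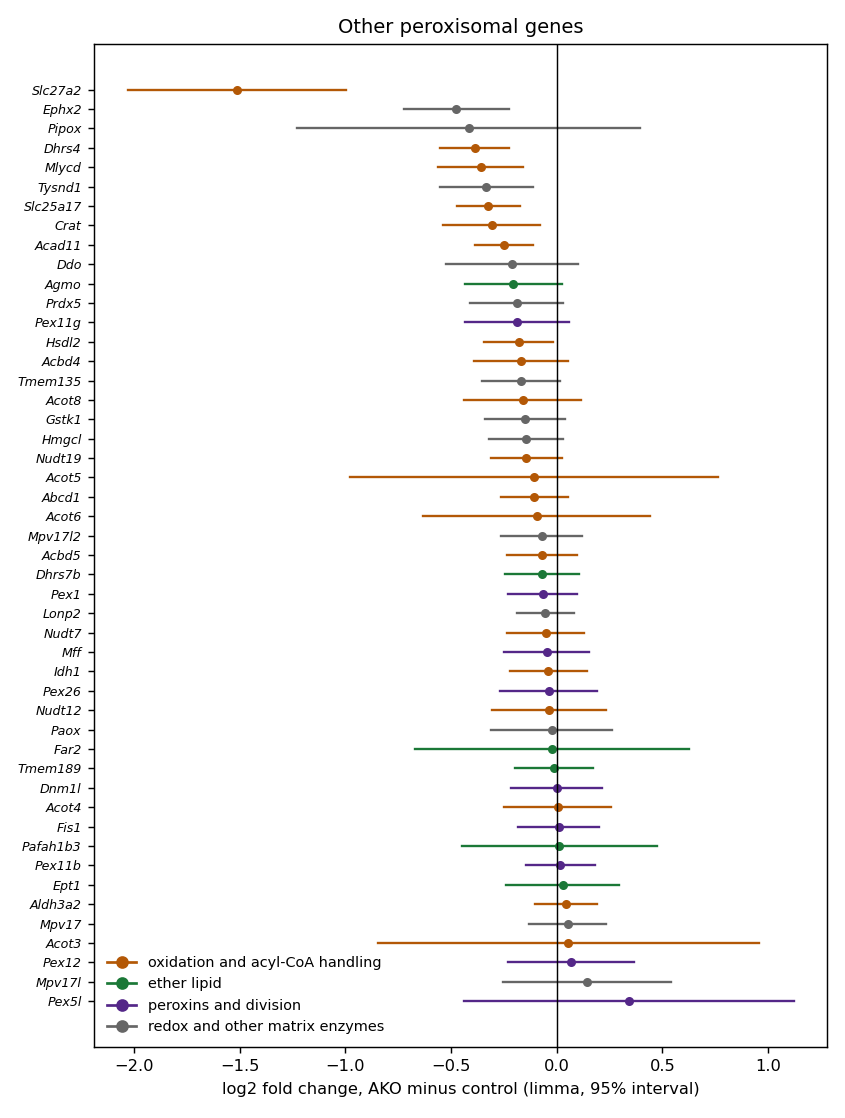
Log2 fold change (AKO minus control) from limma with its 95% interval for the other peroxisomal genes tested and reported here, colored by list and ordered by value. *Slc27a2* stands apart at -1.51, most points lie below 0, and the peroxins and division genes lie around 0.

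The genes whose pattern over the 6 samples was most like that of *Ehhadh*, by Pearson r on log2 values and given as a description of samples in 2 groups, were *Suclg1* (r = 0.999), *Oxnad1* (0.999), *Slc25a20* (0.998), *Man2c1* (0.996) and *Tmco1* (0.995). Among the other 34 genes the closest were *Amacr* (0.982), *Ech1* (0.979) and *Pex19* (0.970), and the farthest was *Far1* (-0.73).

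Marker genes of some other cell types also differed between samples. The summed level of 13 skeletal muscle markers ran from 176 to 23238 in control and from 17038 to 99801 in AKO samples, with *Myh4* at 8.03 in control sample 1. The median log2 difference of the muscle markers was 3.43, with 1 of 13 higher at an unadjusted limma p under 0.05 (4.41% of all genes). With the muscle score as a covariate in limma, the oxidation median was -0.24 and *Ehhadh* had a log2 difference of -0.69. At an unadjusted p under 0.05 in that fit, 15 of the 35 were lower (6.79% of all genes) and 1, *Far1*, was higher (5.51%). The score (log2) was 3.10, 9.50 and 8.06 in control and 8.63, 9.69 and 10.1 in AKO samples. It thus mainly set control sample 1 apart, and the fit cannot settle the part of muscle. The 8 macrophage markers had a median log2 difference of 0.38, with summed levels of 9107 to 12854 in control and 11318 to 15265 in AKO samples. Of these 8, 4 were higher at an unadjusted limma p under 0.05 (4.41% of all genes). Of the 7 thermogenic adipocyte markers 6 were lower at an unadjusted limma p under 0.05 (4.69% of all genes). After adjustment limma called 1 of them lower (0.00722% of all genes). Their median was -1.07, with summed levels of 27631 to 39747 against 11372 to 14847. The 8 adipocyte markers had a median of -0.09, and none had an unadjusted limma p under 0.05. Mammary epithelial markers (26.9 to 1373 against 188 to 1854) and lymphocyte markers (419 to 1399 against 474 to 1733) varied within both groups, and AKO sample 2, which stood apart in *Agps*, *Far1* and *Cat*, had the highest sum of both. The 5 endothelial markers had a median log2 difference of -0.06, with summed levels of 17227 to 18751 in control and 15944 to 18183 in AKO samples. For the 7 Schwann cell and myelin markers the median was 0.01. In both lists, 0 had an unadjusted limma p under 0.05 (4.69% of all genes lower, 4.41% higher). The part of macrophage, thermogenic, mammary and lymphocyte cells in the differences of the 35 genes was not tested.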

How the data were processed

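RNA-Seq of iWAT was analysed for 3 control and 3 AKO samples, each of RNA pooled from 2 mice. Groups follow the genotype given in the labels. The authors aligned reads to GRCm38 (mm10 in the submitters' processing notes) using STAR, obtained gene counts from featureCounts and deposited a signal for each gene, which is its count scaled by the DESeq2 size factor of the sample. Fold changes (log2) and p-values of the authors' own comparison, in the same deposited table, were not used. All per-sample columns had a sample (0 without one).

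Values were tested with limma (version 3.58.1, R 4.3.3) with a variance trend on log2(value + 1), for 13855 genes with a mean of at least 10, at a Benjamini-Hochberg adjusted p under 0.05 over all genes. Because all values were multiples of a step worth 1 read, whole reads were recovered for 100% of values (within 0.01 read) and tested with edgeR (version 4.0.16) and DESeq2 (version 1.42.0) as alternatives. The depth of 17570335 to 18373707 reads per sample makes counting error small except for genes with few reads. The scripts were tested on simulated data. Pairs of samples within a group were unlike beyond counting noise (chi-square over its degrees of freedom, 10.3 to 21.3), and each of the 6 was kept as a separate replicate.

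The members and lists were chosen with earlier results of these data known. Named were all 35 members, Nrg4, other peroxisomal genes called by limma or DESeq2 and the next 6 by limma p, the 5 genes nearest to the member with the smallest p, and marker genes. A planned search of proteins for a peroxisomal targeting signal was not run, as no protein table was used here. Some genes of the lists, and 1 of the 9 ratios, are not reported here. The symbols were matched to GENCODE M21 on GRCm38 for positions and exon lengths, of which 15894 of 16538 (96.1%) matched, and promoters came from RefSeq (GRCm38.p6). Alternatives were other pseudocounts (0.1 and 10), filters, scalings, variance models, a muscle marker score as covariate, a block for the replicate number, and omission of single samples.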

Additional observations from a re-analysis of the deposited data

How the results depend on the processing

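Of the 35 genes, 30 kept one direction under all 18 alternatives. With single samples left out, 5 changed sign in 1 or 2 of 6 refits, with log2 differences of -0.10 to 0.0765 for *Abcd2*, -0.0142 to 0.0572 for *Crot*, -0.0168 to 0.21 for *Agps*, -0.13 to 0.0333 for *Pex10* and -0.0786 to 0.10 for *Pex11a*. The same refits gave an oxidation median of -0.27 to -0.17, an ether lipid median of -0.0168 (without AKO sample 2) to 0.21 and a peroxin median of -0.16 to -0.07. The members with all AKO samples above all control samples then numbered 1 to 2 (10.5% to 13.8% of all genes), and those below 18 to 22 (11.4% to 15.1% of all genes). The oxidation median was -0.24 with the muscle score as covariate.

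limma called 2 of all genes. The count was 6 with at least 10 in every sample, 5 by edgeR with RLE factors, 11 with robust shrinkage, 0 without a variance trend, 0 with the muscle score, and 0 to 3 with single samples left out. DESeq2 called 149 of all genes, 5 of the 35 members and 5 of the other peroxisomal genes, where limma called 0 and 0. The cause was not tested. Deviations of samples with the same replicate number had correlations of 0.14, -0.35 and 0.24, and those with other numbers -0.50 to 0.34. With 3 samples per group, these correlations cannot decide whether the numbers pair the samples. With the replicate number as a block, limma called 2 of all genes and 0 members, 12 members were lower at an unadjusted p under 0.05 (4.8% of all genes), and the oxidation median was -0.20. Depth limits *Acox2* most, the least abundant of the 35.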
